A study of Mus musculus with 7 samples.

Results

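The late spermatid transcripts are the messenger RNAs of 9 mouse genes that are made in the testis as round spermatids turn into sperm: Prm1, Prm2, Prm3, Tnp1, Tnp2, Smcp, Odf1, Akap4 and Gapdhs. They were measured here in fat. A gene was a member if the array's annotation gave its probe set exactly that 1 symbol, and each of the 9 had a single such probe set, out of 19938 genes named in this way. The samples were 3 aP2-XBP1 transgenic and 4 wild type libraries of epididymal white adipose tissue, the fat pad beside the epididymis and testis, from male C57Bl/6J mice aged 17 weeks and fed standard chow. In the transgenic mice the promoter of aP2 (Fabp4), a fatty acid carrier of adipocytes that macrophages also make, drives XBP1, which switches on genes against stress of the endoplasmic reticulum. The wild type mice were age-matched. The labels number the samples as replicates and do not say whether each came from its own animal or from a pool. The genes were chosen by their log2 values in these libraries, being high in wild type replicate 4, so their levels in these libraries are described and not tested.

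In spermatids the histones are removed from DNA, replaced first by transition proteins (Tnp1, Tnp2) and then by protamines (Prm1, Prm2), small proteins rich in arginine that pack the sperm nucleus. The same cells build a tail with outer dense fibres (Odf1) and a fibrous sheath (Akap4), a mitochondrial sheath lined with the cysteine-rich capsule protein Smcp, and a glycolytic enzyme of their own that is fixed to the fibrous sheath (Gapdhs). Transcription stops as the nucleus condenses, and these messages are stored and translated later. They are known as testis transcripts and not as transcripts of fat.

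The labelled tissue was checked against adipocyte genes, which were high in every library. Means of 13 adipocyte markers lay between 10.97 and 11.12 on the log2 scale in the transgenic libraries and between 10.27 and 10.99 in the wild type libraries. Xbp1 read 9.66 to 9.99 in transgenic and 8.90 to 9.19 in wild type fat. Medians of the 7 arrays ran from 3.99 to 4.04. Wild type replicate 4 stood apart from all other libraries. It read at least 1 log2 unit (2-fold) above each of the other 6 for 321 of 19938 genes (1.61%), while the same count was between 1 and 35 genes for every other library.

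The stretch of DNA before a gene's start site is shown for 5 of the genes. These are all members in which a searched motif was found (Prm2, Tnp1, Gapdhs and Akap4), and Prm3, which had none. Prm1, Tnp2 and Smcp also had none and are not shown, so marked flanks are over-represented in this display. Whether any of these sequences bears on the readings was not tested. The 100 bases before the start site are given 5′ to 3′ from RefSeq promoters of GRCm38.p6, for Prm2 (chr16:10792106-10792205, minus strand), Prm3 (chr16:10790915-10791014, minus strand), Tnp1 (chr1:73015900-73015999, minus strand), Gapdhs (chr7:30743682-30743781, minus strand, the more upstream of its 2 windows) and Akap4 (chrX:7067415-7067514, plus strand, also the more upstream of 2). Capitals mark TATAAA or TGATGTCA on either strand.
Prm2: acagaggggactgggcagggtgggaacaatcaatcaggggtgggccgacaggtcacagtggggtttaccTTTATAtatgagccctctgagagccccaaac
Prm3: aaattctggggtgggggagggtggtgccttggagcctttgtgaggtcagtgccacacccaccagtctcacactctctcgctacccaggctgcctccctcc
Tnp1: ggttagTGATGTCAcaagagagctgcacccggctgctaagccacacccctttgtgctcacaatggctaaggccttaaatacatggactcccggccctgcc
Gapdhs: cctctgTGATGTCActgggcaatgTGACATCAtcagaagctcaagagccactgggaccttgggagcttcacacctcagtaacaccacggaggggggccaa
Akap4: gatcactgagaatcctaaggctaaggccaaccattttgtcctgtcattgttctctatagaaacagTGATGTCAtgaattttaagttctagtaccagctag

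Of the 9 genes 8 had such a window, 10 windows in all. CREM, the activator of many genes in round spermatids, is known to bind the cAMP response element TGACGTCA. Within 250 bases before the start site that element was in 0 of the 10 windows, on either strand, against 1.55% of 32851 windows of all genes. Its core TGACG was also in 0, against 17.8%. Only exact letters were searched, so near matches such as TGACTTCA in the flank of Prm1 were not counted. TATAAA was in the window of Prm2 alone, on the opposite strand as TTTATA, against 12.4% for either strand. The related letters TGATGTCA, picked out after these flanks had been read, were in 4 windows of 3 genes (Tnp1, Gapdhs and Akap4), against 2.93% of all windows. The count of 4 includes both windows of Gapdhs, which share much of the sequence around the motif, so their hits are not separate. The Gapdhs start sites lie 1110 and 5384 bases inside the annotated edge of the gene. No test is attached to a motif chosen in this way. In the annotation Tnp2, Prm3, Prm2 and Prm1 follow each other on chromosome 16 with no other gene between them.

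Both protamines of sperm chromatin were high in wild type replicate 4 and at low readings elsewhere. Prm2 (10437680) read 3.36, 3.54 and 3.68 in transgenic replicates 1 to 3, against 3.68, 3.25, 3.68 and 9.76 in wild type replicates 1 to 4. Wild type replicate 4 alone was high, 6.08 log2 units or 67.8-fold above the next library, and the other 3 wild type libraries overlapped the transgenic ones. This was the largest such excess among all 19938 genes, for a gene chosen for being high in that library. Prm1 (10437684) read 3.99, 4.12 and 4.14 in the transgenic libraries, against 4.06, 3.85, 4.12 and 8.65 in the wild type libraries. Its excess in wild type replicate 4 was 4.51 log2 units, or 22.8-fold. RMA, the method behind these values, compresses differences of dim probe sets, so each fold describes this scale and not a ratio of molecules. In tissue RNA, more cells of a type and more RNA per cell cannot be told apart.

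Prm3, which lies between Prm2 and Tnp2 but encodes an acidic protein of the spermatid cytoplasm, did not share the pattern to the same degree. Its probe set (10437677) read 4.88, 5.01 and 4.77 in the transgenic libraries, against 4.84, 4.49, 4.83 and 5.33 in the wild type libraries. Wild type replicate 4 was again the highest, by 0.32 log2 units over transgenic replicate 2. That gap is smaller than the spread of 0.52 among the other 6 libraries.

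Of the transition proteins, which bind DNA between the loss of histones and the arrival of protamines, Tnp2 (10437673) had the wider gap. It read 3.36, 3.41 and 3.41 in the transgenic libraries, against 3.41, 3.41, 3.39 and 7.45 in the wild type libraries. The excess of wild type replicate 4 was 4.04 log2 units, and the other 6 libraries differed from each other by no more than 0.05. The same low value stood in 4 of these 6 libraries, so that narrow range rests on repeated readings. Tnp1 (10355511) read 2.73, 2.61 and 2.50 in the transgenic libraries, against 2.73, 2.54, 2.73 and 4.87 in the wild type libraries. Its excess was 2.13 log2 units, or 4.38-fold. It was thus the member closest to the 1-unit line among those that passed it, as Prm3 was among those that did not.

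**Figure D1:**
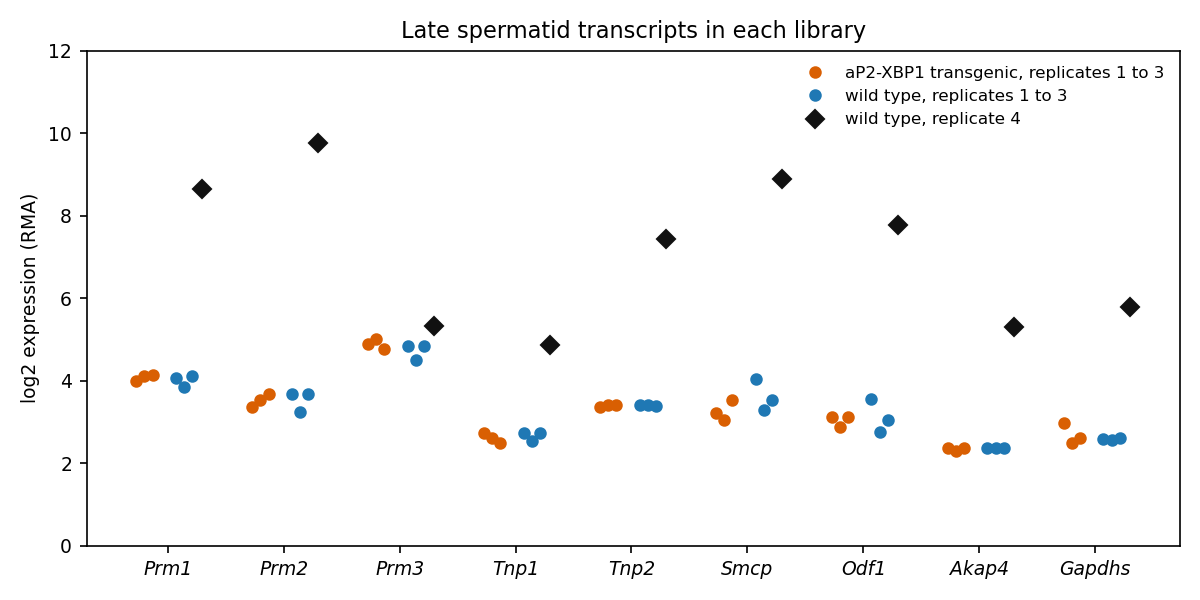
Log2 expression (RMA) of the 9 late spermatid transcripts, with 1 point per library: transgenic replicates 1 to 3 (orange), wild type replicates 1 to 3 (blue) and wild type replicate 4 (black diamond). In wild type replicate 4 the readings run from 4.87 (Tnp1) to 9.76 (Prm2), and for Prm3 the gap to the next library is 0.32.

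The transcripts of the sperm midpiece and tail followed the protamines. Smcp (10499906), the capsule protein of sperm mitochondria, read 3.21, 3.05 and 3.53 in the transgenic libraries, against 4.04, 3.28, 3.53 and 8.90 in the wild type libraries. The excess of wild type replicate 4 was 4.86 log2 units. Odf1 (10423798), the main protein of the outer dense fibres, read 3.12, 2.89 and 3.12 in the transgenic libraries, against 3.57, 2.77, 3.04 and 7.77 in the wild type libraries. Its excess was 4.20 log2 units. For Smcp and Odf1 the next library was wild type replicate 1, at 4.04 and 3.57. For the other 7 members wild type replicate 1 was not alone in second place.

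Akap4 (10598279), the scaffold protein of the fibrous sheath, is X-linked. It read 2.37, 2.31 and 2.37 in the transgenic libraries, against 2.37, 2.37, 2.37 and 5.30 in the wild type libraries, an excess of 2.93 log2 units for wild type replicate 4. The same value stood in 5 of the other 6 libraries. Gapdhs (10562105), the glyceraldehyde-3-phosphate dehydrogenase of sperm, read 2.97, 2.49 and 2.62 in the transgenic libraries, against 2.59, 2.56, 2.62 and 5.79 in the wild type libraries. Its excess was 2.82 log2 units, or 7.07-fold.

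Over the group, 8 of 9 members passed 1 log2 unit in wild type replicate 4, against 1.61% of all genes, a count that the choice of the members fixed. All 9 were highest there, which their choice also favoured, as were 14.8% of all genes. The median excess was 4.04 log2 units for the members and -0.19 for all genes. At 0.5 and 2 log2 units the count of members was also 8, against 3.81% and 0.547% of all genes. No member passed 1 unit above all the rest in any other library, where 0.0201%, 0.0201% and 0.01% of all genes did in transgenic replicates 1 to 3 and 0.176%, 0.0652% and 0.00502% in wild type replicates 1 to 3. No member, and 0.00502% of all genes, lay at least 1 unit below every other library in wild type replicate 4. Apart from wild type replicate 4, the range over 6 libraries was between 0.05 (Tnp2) and 0.99 (Smcp), with a median of 0.42 for the members and 0.33 for all genes. The mean of the 9 members was 3.33, 3.27 and 3.35 in the transgenic libraries, and 3.48, 3.17, 3.37 and 7.09 in the wild type libraries. As a gauge of dim readings, 95% of 1035 olfactory receptor probe sets read below a value between 3.01 and 3.13 in each library. All 9 members lay above that value in wild type replicate 4 and 4 to 6 of them in each other library. Since every probe set has its own background, this does not show which of them were expressed.

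The design's own comparison, transgenic against wild type fat, gave lower means in transgenic fat for 8 of the 9 members, and a difference of 0.01 (SE 0.19) for Prm3. The lower means rested largely on wild type replicate 4, the library by which the members were chosen, so the choice favoured this direction. The share of all genes with a lower mean in transgenic fat is not given here. Prm2 averaged 3.53 ± 0.16 (SD, n = 3) in transgenic and 5.09 ± 3.12 (SD, n = 4) in wild type fat, a log2 difference of -1.56 (limma SE 1.63). The SE was larger than the size of the difference for 6 of the 9 members. In Tnp1, Smcp and Odf1 the differences were -0.60 (SE 0.58), -1.67 (SE 1.39) and -1.24 (SE 1.23). The median difference of the members was -1.02, against 0.01 for all genes. Without wild type replicate 4 it was -0.01, and single members then ran from -0.35 (Smcp, SE 0.23) to 0.16 (Prm3, SE 0.12). For 0 of 9 members did the transgenic libraries lie wholly outside the wild type ones. Over all genes 3.55% lay wholly above and 2.24% wholly below. Limma called 0 of 21789 probe sets in either direction at an adjusted p of 0.05 (0%), and 1050 higher and 679 lower at an unadjusted p under 0.05. That balance depended on the scaling and on wild type replicate 4: with the arrays set to a common median it was 1900 higher and 446 lower, and without that library 801 higher and 901 lower.

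**Figure D2:**
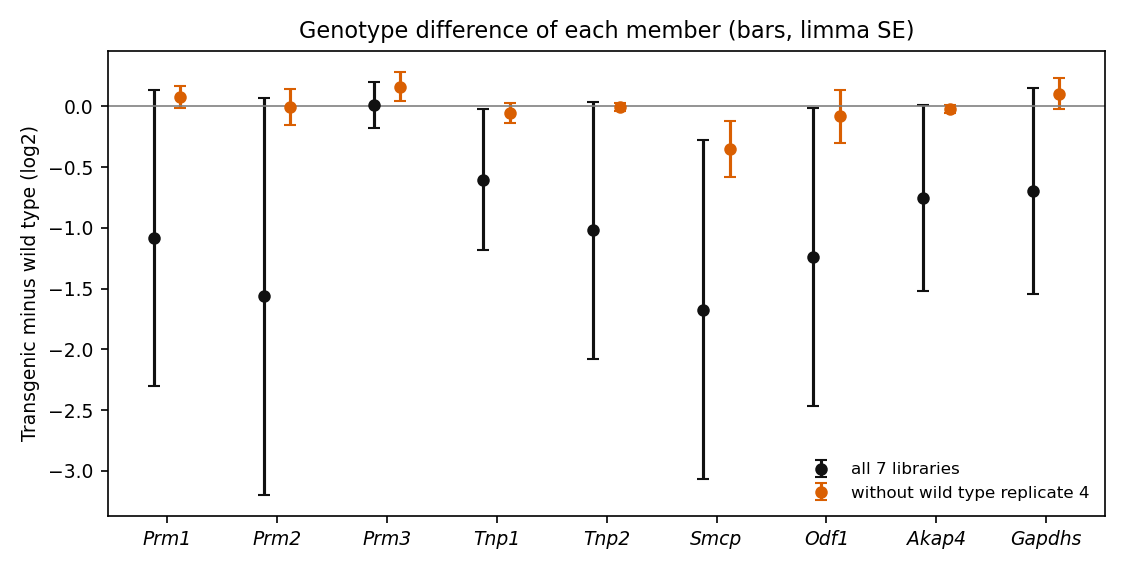
Transgenic minus wild type difference (log2) of each member with its limma SE (bars), over all 7 libraries (black) and without wild type replicate 4 (orange). The median is -1.02 over all 7 and -0.01 without that library.

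Other genes of the germ line were high in the same library. The 6 lists of germ cell genes from meiosis to sperm held 132 measured genes other than the members, of which 47 (35.6%) read at least 1 log2 unit higher in wild type replicate 4 than in each other library, against 1.61% of all genes. Their median excess was 0.62. These lists were drawn up from textbook knowledge with earlier results of these data known, so their counts are a description. Genes of the sperm tail and sheath had the highest share, 18 of 26, with a median excess of 1.65. Oaz3, an antizyme of spermatids, read 7.28 in wild type replicate 4 and 2.55 to 3.02 in the others. Gsg1, a germ cell gene, differed by 4.28 log2 units and Tcp11, a gene of sperm motility, by 3.76. Tuba3b, a testis alpha-tubulin, differed by 3.82, and as its near-identical copy Tuba3a is on the array their signals may be shared; Tuba3a differed by 2.32. Gpx4, an enzyme of the sperm midpiece that most cells also make, was lower by 0.55 in wild type replicate 4 than in the highest other library.

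The enzymes and surface proteins of sperm were split. In the list of germ cell energy enzymes 4 of 15 genes passed. Ldhc, the lactate dehydrogenase of germ cells, read 6.92 in wild type replicate 4 and 2.66 to 2.83 elsewhere. Pgk2, the phosphoglycerate kinase that takes over when the X-linked gene is silenced in meiosis, differed by 3.40, Pgam2, a phosphoglycerate mutase also known from muscle, by 3.38 and the glucose transporter Slc2a3 by 1.41. Among genes of the acrosome, the vesicle that carries the enzymes for fertilisation, and of the sperm surface, 9 of 28 passed. Crisp2 led with 4.93, followed by the metalloprotease family members Adam5 (4.21) and Adam3 (3.97) and by Dkkl1, an acrosomal protein (2.58). The sperm-egg fusion protein Izumo1 differed by 0.04.

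In the list of other spermatid nucleus genes 2 of 8 passed, Spem1 (2.45) and the chromatin protein Hmgb4 (1.18). Spem1 acts in the removal of spermatid cytoplasm, so it fits the name of that list only loosely. The histone variants H2bl1 and H2al2a differed by 0.79 and 0.71. In the list of spermatid kinases and regulators 7 of 27 passed, led by the germ cell heat shock protein Hspa1l (3.41), the testis poly(A)-binding protein Pabpc2 (3.26), the ubiquitin ligase Rnf133 (2.44) and the kinase Tssk3 (1.95). Crem itself differed by 0.58. Genes of spermatocytes, the cells in meiosis, were included: 7 of 28 passed, with Mael, which guards the germ line against transposons, at 4.20 and the helicase Ddx4 at 3.48. The cohesin subunit Stag3 differed by 1.83 and Syce1, of the synaptonemal complex, by 1.63. Sycp3, of the same complex, was highest elsewhere. It read 4.27, 6.40 and 4.33 in the transgenic libraries, against 2.88, 4.27, 3.50 and 4.56 in the wild type libraries. Transgenic replicate 2 was the highest, 1.84 log2 units above wild type replicate 4.

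**Figure D3:**
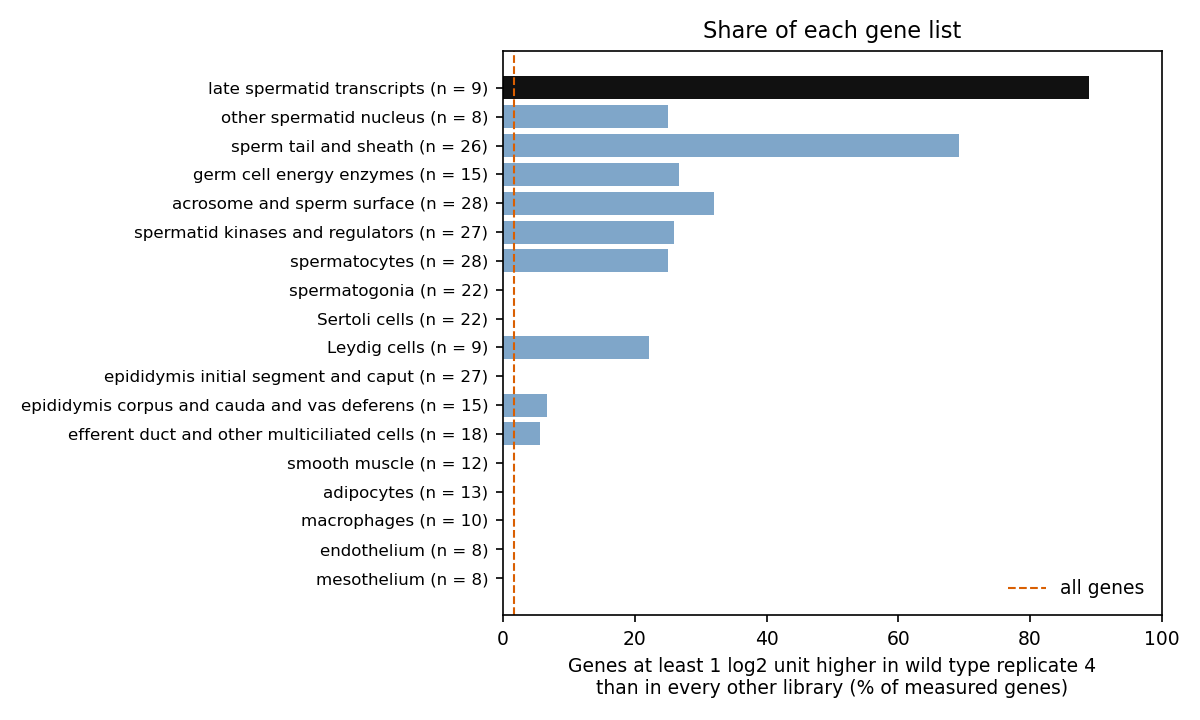
Share of the measured genes in each list (n, genes) that read at least 1 log2 unit higher in wild type replicate 4 than in every other library; the dashed line is the share of all genes, 1.61%. The late spermatid transcripts (black) are at 88.9% by their choice, the sperm tail and sheath at 69.2%, Leydig cells at 22.2%, and spermatogonia and Sertoli cells at 0.

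The other cells of the testis differed from each other. Of 22 measured genes of spermatogonia, the stem and early cells of the germ line, 0 passed, with Dmrtb1 (0.51) and Gfra1 (0.47) the furthest. Of 22 Sertoli cell genes 0 passed, with Inha at 0.41 and Aard at 0.39. Clu, a Sertoli gene that fat also makes, read 9.18 in wild type replicate 4 and 8.43 to 8.85 elsewhere. Leydig cells, which make testosterone, gave 2 of 9 (22.2%), against 1.61% of all genes and 25% for spermatocytes. Cyp17a1, an enzyme of androgen synthesis, read 5.83 in wild type replicate 4 and 2.75 to 2.91 in the other 6 libraries, an excess of 2.92. Hsd3b6 differed by 1.12 and Cyp11a1 by 0.96, while Star, the carrier of cholesterol into mitochondria, was 0.26 below the highest other library. The part of these cells in the readings of the members was not tested. Means over the list were 3.86 in wild type replicate 4 and 3.15 to 3.24 elsewhere.

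The genes of epididymis and vas deferens, 42 measured in 2 lists, had no single pattern across libraries. Spink8 read 2.78, 2.89 and 2.63 in the transgenic libraries, against 8.82, 2.45, 8.89 and 9.51 in wild type replicates 1 to 4. Defb42 read 3.17, 2.69 and 2.48 in the transgenic libraries, against 8.41, 2.51, 8.41 and 9.14 in the wild type libraries. Wild type replicates 1, 3 and 4 were thus high in both genes, whereas the members were high in replicate 4 alone. The excess of wild type replicate 4 over the next library was 0.62 for Spink8, 0.73 for Defb42 and 0.67 for Serpina1f. In the 2 lists of epididymis and vas deferens 0 of 27 and 1 of 15 genes passed 1 unit, and that 1 was Spink11 (1.00). Other genes of these lists were high elsewhere. Pate4 read 6.55 and Spinkl 4.76 in wild type replicate 2, against at most 3.05 and 2.27 in any other library, and Ceacam10 was also highest in that library, at 6.37. Adam7 and Lcn8 were highest in transgenic replicate 1, at 4.69 and 4.14. Defb30 and Aqp9, a water and glycerol channel, were highest in wild type replicate 4, at 6.06 and 7.69. These readings were 0.93 and 0.78 log2 units above the next library.

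Smooth muscle, which surrounds the ducts of the tract, had the same 3 libraries high. The mean of its 12 genes was 6.41, 6.63 and 6.04 in the transgenic libraries, against 8.32, 6.50, 8.37 and 8.86 in the wild type libraries. All 12 were highest in wild type replicate 4 but 0 by 1 log2 unit, with Actg2 at 0.99 and Myh11 at 0.59. Multiciliated cells, which line the efferent ducts between testis and epididymis and share tail proteins with sperm, had 1 of 18 genes past 1 unit. That was Rsph1, a radial spoke protein known from testis, at 2.30. Ccdc113 differed by 0.74, Ccdc39 by 0.71 and Dnaic1 by 0.56. Foxj1, the transcription factor that defines these cells, read 5.03 in wild type replicate 4 and 4.72 to 5.01 elsewhere. Of the 18 genes 9 were highest in wild type replicate 4, against 14.8% of all genes. The mean of the list was 4.69 there and 3.84 to 4.41 elsewhere. In the remaining lists, adipocytes (13 genes), macrophages (10), endothelium (8) and mesothelium (8), 0 genes passed, and the furthest were Fabp4 (-0.17), Mrc1 (-0.78), Emcn (-0.17) and Krt19 (0.56).

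**Figure D4:**
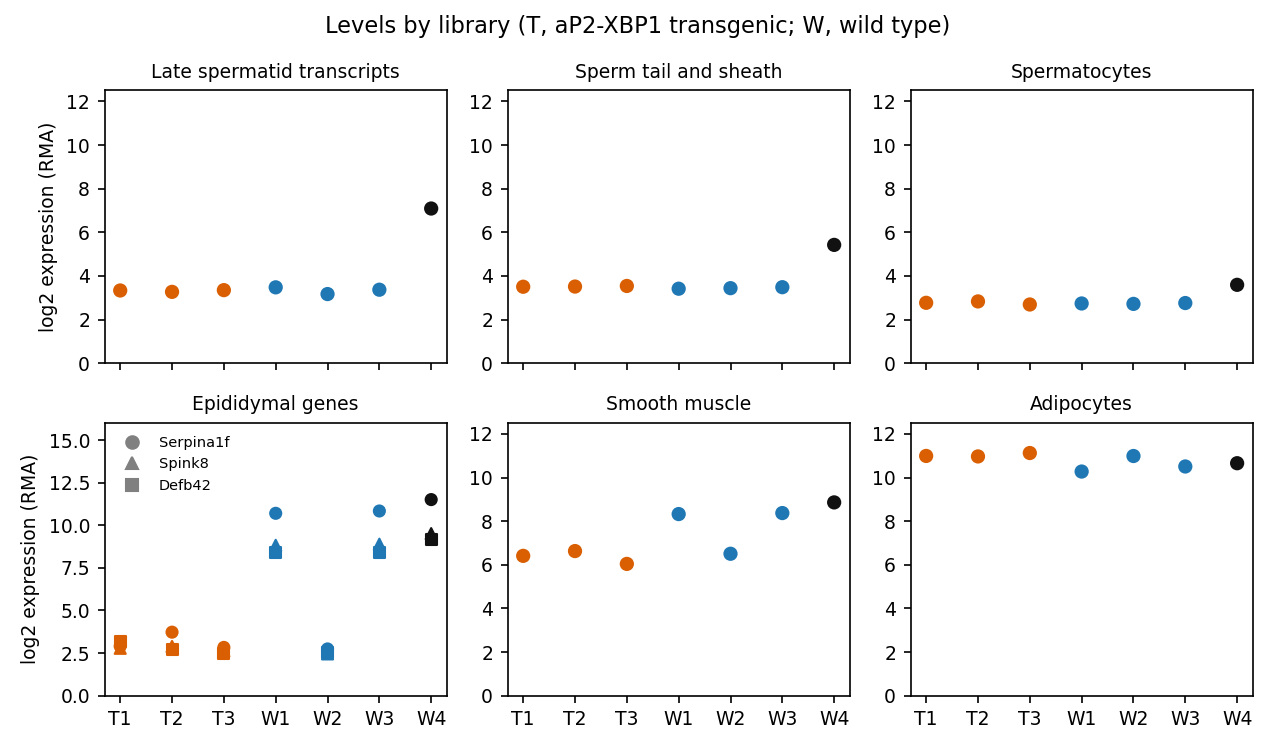
Log2 expression (RMA) in each library (T1 to T3, transgenic; W1 to W4, wild type; W4 in black) as the mean of a list's genes, or as single values for 3 epididymal genes. The mean of the late spermatid transcripts is 7.09 in W4 and 3.17 to 3.48 elsewhere, while these 3 epididymal genes and smooth muscle are high in W1, W3 and W4.

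The genes whose pattern was most like that of the members were taken from 1922 other genes that varied by at least 1 log2 unit over the 7 libraries. Pearson's r with the mean of the members was highest for Cd55b, Fam71f1, Ankrd7, Efcab5, Dpep3, Adam5, Nt5c1b, Dpy19l2, Spink2 and Fam227b, from 0.9986 to 0.9993. With 7 libraries and 1 of them far above the rest, such an r says little more than that the same library was high, and 127 genes exceeded 0.99. Their excess in wild type replicate 4 ran from 1.12 (Cd55b) to 4.21 (Adam5). Dpy19l2, needed to attach the acrosome to the nucleus, read 4.99 in wild type replicate 4 and 3.05 to 3.17 elsewhere. Spink2, an acrosomal protease inhibitor, read 5.18 there and 2.96 to 3.09 elsewhere.

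By size of the excess, 6 of the 9 members stood among the first 50 of all 19938 genes, a rank that their choice favoured. The largest outside the members belonged to Fabp9, Crisp2, Iqcf3, Clec2m, Gsg1, Oaz3, Atp8b3, Adam5, Mael and Spz1. Fabp9, a fatty acid binding protein of spermatids, read 8.14 in wild type replicate 4 and 2.46 to 2.88 in the other 6 libraries, an excess of 5.27. Atp8b3, a phospholipid transporter of the acrosome, differed by 4.21 and Spz1, a transcription factor of the testis, by 4.16. Iqcf3 and Clec2m differed by 4.59 and 4.34. Fabp4, of the same family as Fabp9 and a gene of adipocytes, read 12.17 in wild type replicate 4 and 11.77 to 12.34 elsewhere.

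**Figure D5:**
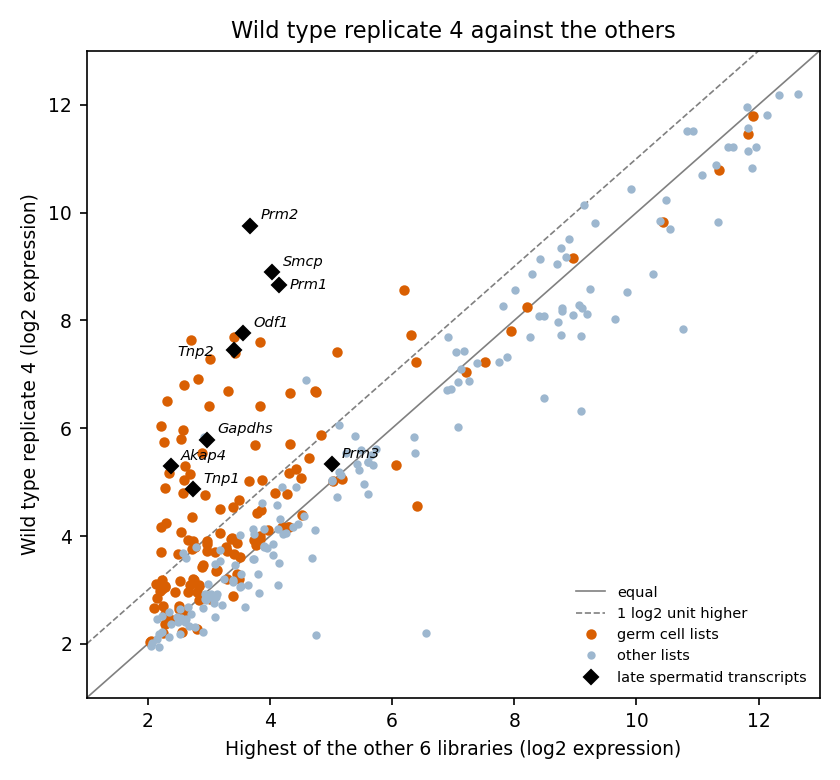
Log2 expression in wild type replicate 4 (vertical) against the highest of the other 6 libraries (horizontal) for the 9 members (black diamonds), germ cell lists (orange) and other lists (blue). Points above the dashed line are at least 1 log2 unit higher in wild type replicate 4, as are 8 of the 9 members and 47 of 132 germ cell genes.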

How the data were processed

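RNA of 7 fat libraries was hybridised to 1-colour Affymetrix arrays, 1 per library. The authors deposited 1 table of log2 values for 35556 probe sets, made with RMA per the submitters' processing notes. For the RMA version and the genome build, the sources used here give nothing. All 7 columns were matched to samples by label and 0 were unused. Exactly 1 gene symbol belonged to 21789 probe sets (19938 genes), several to 1621 and none to 12146. Genes were named from the platform annotation, and each was read from its probe set with the highest mean.

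The excess is the log2 value of wild type replicate 4 minus the highest other library. Genotypes were compared with limma 3.58.1 in R 4.3.3 (two-sided, Benjamini-Hochberg, adjusted p of 0.05), checked on simulated data. As replicates may not be separate animals, p-values measure only the spread between these samples. Of 315 entries in 17 lists 296 were measured. The members and lists were chosen with earlier results of these data known. The text names up to 4 genes per list with the largest excess (2 where none reached 1 unit), the 10 most like and the 10 largest, leaving out clone names, predicted and olfactory genes. Sycp3, Gpx4, Izumo1, Crem, Clu, Star, Foxj1, Tuba3a, Spink8, Pate4, Spinkl, Ceacam10, Adam7 and Lcn8 were added after their values were seen. Promoters came from RefSeq (GRCm38.p6), matched by symbol for 8 of 9 members. The number of arrays limits the precision. Tables and figures were made with Python 3.11.15, pandas 2.3.3 and matplotlib 3.10.9.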

Additional observations from a re-analysis of the deposited data

Results flagged for a closer look

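Among the 4 wild type libraries, a gene is listed here if its highest or lowest library was separated from the nearest other by a share of the group's whole range above Dixon's 95% critical value. Chance passes about 1 in 20 groups when genes are not picked by these values. That rate does not apply to the members or to genes named for their excess or pattern. Of 76 genes examined 50 passed, and in 47 of them the separate library was replicate 4, the library for which the members and most of the named genes had been picked out, so the number of passes is no evidence of its own. The values in parentheses are that share of the range.

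Of the late spermatid transcripts 8 passed with replicate 4 highest, Prm1 (0.943), Prm2 (0.935), Tnp1 (0.918), Tnp2 (0.994), Smcp (0.865), Odf1 (0.84), Akap4 (1) and Gapdhs (0.981), and the mean of the members gave 0.921. Prm3 did not pass. The choice of the members by this library favoured the 8 passes, which describe the gap and are not a test. Genes with the largest excess in replicate 4 were Fabp9 (0.93), Crisp2 (0.951), Iqcf3 (0.899), Clec2m (0.96), Gsg1 (1), Oaz3 (0.93), Atp8b3 (0.972), Adam5 (0.963), Mael (0.986) and Spz1 (0.953). Those with the most similar pattern were Cd55b (0.895), Fam71f1 (0.967), Ankrd7 (0.962), Efcab5 (0.94), Dpep3 (0.952), Nt5c1b (0.96), Dpy19l2 (0.956), Spink2 (0.944) and Fam227b (0.913).

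Other germ cell genes with replicate 4 highest were Spem1 (0.991), H2al2a (0.853), Tuba3b (0.963), Tcp11 (0.959), Ldhc (0.977), Pgk2 (0.923), Pgam2 (0.908), Slc2a3 (0.905), Adam3 (0.981), Hspa1l (0.934), Pabpc2 (0.929), Rnf133 (0.92), Tssk3 (0.879), Ddx4 (0.952) and Syce1 (0.884). Of the somatic lists, Inha (0.881), Aard (0.972), Cyp17a1 (0.967), Cyp11a1 (0.943) and Ccdc113 (0.912) had replicate 4 highest. Replicate 2 was the lowest for Defb42 (0.889) and Serpina1f (0.908), both genes of the epididymis, and replicate 1 the lowest for Emcn (0.912), a gene of endothelium.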

How the results depend on the processing

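The count of 8 members at least 1 log2 unit higher in wild type replicate 4 was 8 under every alternative run. Their median excess lay between 3.98 and 4.05. Most alternatives could not lower that count. Leaving out a library or taking a mean of the others can only keep or raise an excess. Each member had 1 probe set, so averaging probe sets changed nothing. Quantile normalization, the common median and the threshold of 2 log2 units could have lowered the count, and each gave 8. The genotype difference depended on that library. The median over the members was -1.02 with all libraries and -0.0084 without wild type replicate 4. Leaving out each library in turn gave -1.36 to -0.0084. With the replicate block it was -0.0084, as the block leaves wild type replicate 4 without a partner. Same-numbered samples had correlations of deviations of -0.14, -0.09 and 0.06. Samples with unlike numbers ran from -0.18 to 0.14, so these values cannot show whether the numbers pair samples. The labels do not say. The count of probe sets called between genotypes was 0, and leaving out 1 library at a time gave 0 to 91. The 91 (7 higher, 84 lower, 0 members) came without wild type replicate 2. At an unadjusted p under 0.05 the balance was 837 higher and 830 lower with the replicate block, and 1339 and 644 after quantile normalization. The list medians without wild type replicate 4 were an alternative chosen after seeing the data: all germ cell lists together gave -0.19 with it and 0.03 without. Of 825 single-gene values 114 moved by more than the spread of the other libraries. Small negative excesses could change sign against the mean of the other 3 wild type libraries. Fabp4 read 12.17 in wild type replicate 4 and 11.77, 12.31 and 12.09 in wild type replicates 1 to 3. The excess has no value without wild type replicate 4. Dim readings limit the low side of every fold, and 1 library cannot show how often the pattern occurs.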

Other observations

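Most of the listed macrophage genes were low in the library that had the spermatid transcripts. Of 10 macrophage genes 9 were lowest in wild type replicate 4, 0 of them by 1 log2 unit. The median of the 10 was -0.44 log2 units against the lowest other library, where all genes had 0.12. The exception, Cd163, read 8.24 in wild type replicate 4 and 7.63 to 9.10 in the other 6 libraries. The share of all genes that were lowest in wild type replicate 4 is not given here. Adgre1, a surface receptor that marks macrophages, read 6.32 there and 7.06 to 9.09 in the other 6 libraries. Irf8, a transcription factor of myeloid cells, was the 1 gene at least 1 log2 unit below every other library, at 4.50. With clone names, predicted and olfactory genes left out, the next by gap to the lowest other library were Jchain (-0.93), Apobec1 (-0.87) and Col5a3 (-0.84). After them came Il10ra, the receptor of interleukin-10 (-0.82), Lhx6 (-0.79), Pld4 (-0.78) and Fermt3, an integrin activator of blood cells (-0.77). These genes were not in the macrophage list.

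Probe sets without a single gene name were counted in the same way. Of 1621 with several symbols 100 (6.17%) read at least 1 log2 unit higher in wild type replicate 4 than in every other library, and of 12146 with no symbol 35 (0.288%) did, against 1.61% of the named genes. What these probe sets measure is not named here.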
